A study of Rattus norvegicus with 3 samples.

Results

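The markers described here are 9 genes that label the mural cells of blood vessels, namely Acta2, Myh11, Tagln and Cnn1 for vascular smooth muscle and Pdgfrb, Notch3, Rgs5, Cspg4 and Mcam for pericytes and the wider mural lineage. They were picked by symbol through the RefSeq accession of each probe, and all 9 were found among the 15168 genes named on the array, with 10 of the 30367 probes (Myh11 has 2). Messenger RNA of male rats labelled Wistar Honnover, aged 12 weeks, was measured on 3 Agilent arrays. One array held the soleus taken 28 days after a stretch of about 5 mm of the left sciatic nerve was cut out at the gluteal level, 1 held the plantaris of normal rats that had received no treatment, and 1 held the soleus of such normal rats. The soleus is a slow postural calf muscle and the plantaris a faster neighbour. With 1 array per group and an unstated number of animals behind each, there is no test, and every fold describes these arrays only.

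Mural cells wrap the endothelial tube. Smooth muscle cells around arterioles carry a contractile apparatus of their own actin and myosin isoforms, switched on by serum response factor and its partner myocardin, while pericytes lie singly on capillaries, which run between the fibres of skeletal muscle. Both lineages are recruited and kept in place by platelet-derived growth factor B from endothelium acting on the receptor Pdgfrb, and arterial smooth muscle is matured by Notch3, which reads Notch ligands on the neighbouring endothelial cell. Because whole muscle was sampled, fewer mural cells and less of a transcript per mural cell cannot be told apart in any value below.

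The RefSeq promoter table (build GRCr8) held 5 of the 9 genes, and 2 are printed, each running from 250 bases before the gene start to 50 after it. Acta2 is shown as a contractile marker, and Notch3 because it moved most between the muscles. Capitals mark CArG boxes, the element bound by serum response factor (CC, then 6 A or T bases, then GG), with 1 C or G allowed among those 6, and the MCAT element GGAATG, searched on both strands.
Acta2, chr1:241172454-241172753, minus strand: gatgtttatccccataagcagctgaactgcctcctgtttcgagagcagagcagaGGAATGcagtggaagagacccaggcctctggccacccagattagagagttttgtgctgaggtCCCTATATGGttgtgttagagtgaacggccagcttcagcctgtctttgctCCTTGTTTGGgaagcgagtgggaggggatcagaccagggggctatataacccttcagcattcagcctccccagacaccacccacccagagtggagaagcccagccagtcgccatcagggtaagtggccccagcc
Notch3, chr7:11834536-11834835, minus strand: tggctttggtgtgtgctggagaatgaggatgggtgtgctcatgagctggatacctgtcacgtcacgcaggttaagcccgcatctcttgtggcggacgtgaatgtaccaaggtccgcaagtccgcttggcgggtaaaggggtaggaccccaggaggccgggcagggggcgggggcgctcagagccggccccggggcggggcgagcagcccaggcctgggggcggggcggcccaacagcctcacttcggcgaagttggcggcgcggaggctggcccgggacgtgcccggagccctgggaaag
The Acta2 window held 2 CArG boxes with 1 C or G, with 124 and 74 bases between them and the gene start, and 1 MCAT element with 190, none of which overlap. Of all 33469 promoters of this length 8.1% held such a CArG box, 1.64% a CArG box with none, and 14.2% the MCAT element. The Notch3 window, with a G+C content of 69% against 56% for Acta2, held none of these, and neither did the windows of Cnn1, Cspg4 and Rgs5. A match is a description of letters, and no match says only that these letters are not in the window.

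Signals are given in arbitrary intensity units after each array was scaled so that its 75th percentile over non-control spots equals that of the normal soleus array, 903. They may be compared between arrays for 1 probe but not between probes. The error after a log2 fold (±) comes from the scanner software and covers measurement only. Between 64.2% and 67.0% of all probes were well above background on an array. Fibre genes matched the labelled muscles. The slow myosin Myh7 was at -2.62 ± 0.20 in plantaris over normal soleus, and the fast myosins Myh1 and Myh4 were at 7.37 and 7.22. The denervated array was read in another scan than the other pair, per the file headers, so scan and denervation cannot be told apart.

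In the denervated soleus the mural markers split. Of the 9 markers 7 were lower than in normal soleus, among them all 4 smooth muscle markers, by 0.48 to 1.21 log2 units, and 2 were higher, Pdgfrb by 0.56 and Mcam by 0.64. Over all genes 48.1% lay below 0. All 9 differences exceeded their technical error, as did 71% of all genes (35.1% on the lower side). Most were under 2-fold, and only Cnn1 passed that mark, as a bound. Over all 11318 genes in this comparison 22.1% were at least 2-fold apart either way (13.4% lower, 8.73% higher), so 1 of 9 is no more than the background. The median log2 fold of the markers was -0.56, against 0.02 over all genes.

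**Figure D1:**
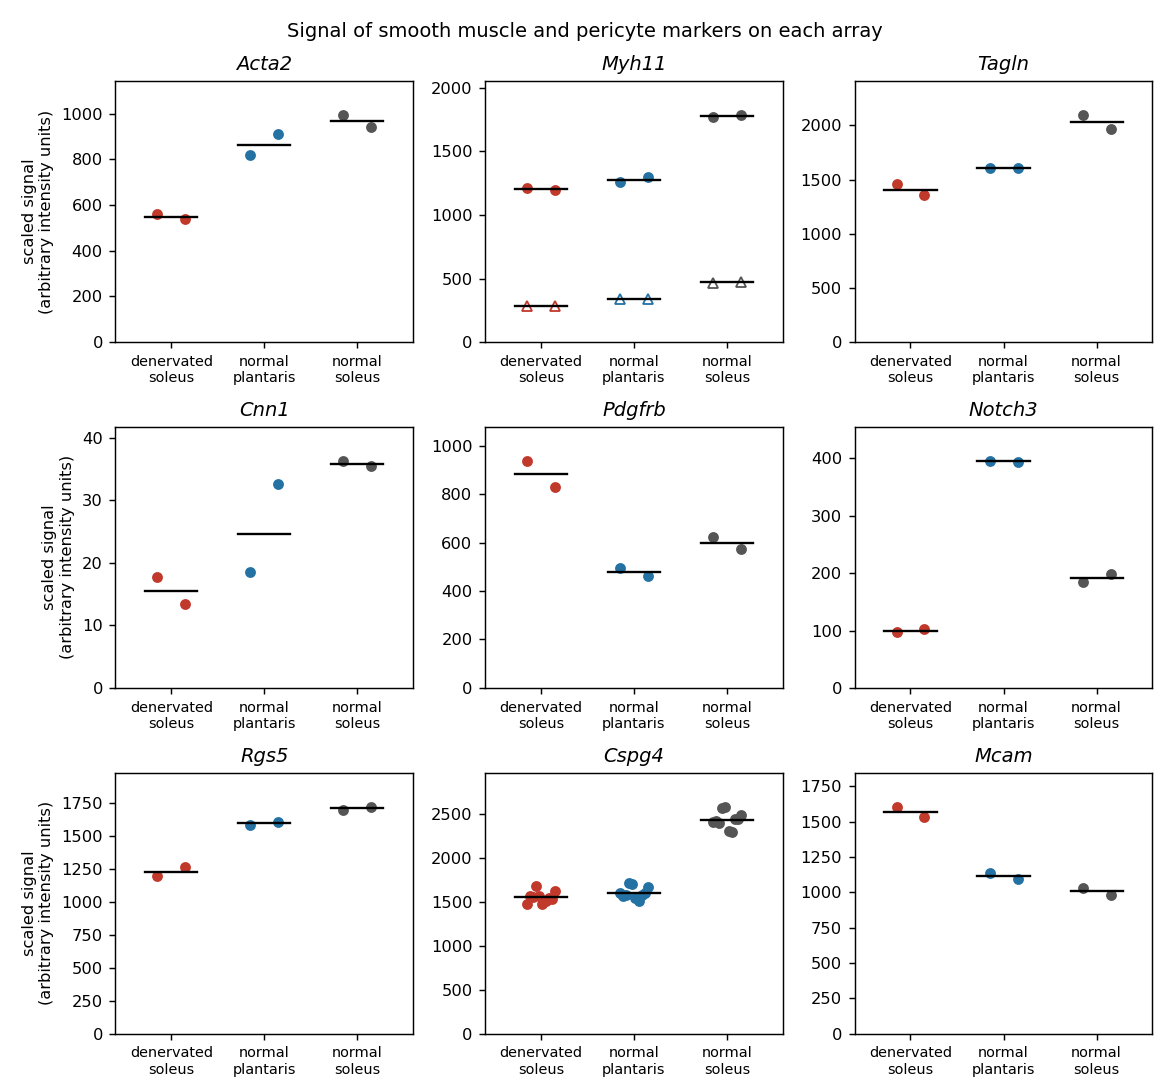
Signal of each marker in arbitrary intensity units (linear axes from 0), scaled to the 75th percentile, on the denervated soleus, normal plantaris and normal soleus array. Points are repeat spots on 1 array, black bars their geometric mean, and open triangles the second Myh11 probe. Notch3 is highest in plantaris (395), and Pdgfrb and Mcam are highest in denervated soleus (883 and 1567).

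Among the contractile genes, Acta2, which encodes the alpha-actin of vascular smooth muscle, had a signal of 549 in denervated soleus, 864 in plantaris and 967 in normal soleus. Its repeat spots lay between 540 and 559 on the denervated array and between 942 and 994 on the normal soleus array, so they did not overlap. The fold of -0.82 ± 0.20 places denervated soleus at 56.8% of normal soleus, and 17.1% of all genes had a lower fold.

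Myh11, the smooth muscle myosin heavy chain, was measured by a pair of probes that moved alike. The brighter one read 1203 in denervated soleus, 1278 in plantaris and 1776 in normal soleus. The dimmer one read 284, 339 and 471 in the same order of arrays. Their folds of -0.56 ± 0.20 and -0.73 ± 0.21 for denervated over normal soleus lay within their errors of each other. Tagln, the actin-binding protein SM22, read 1407 in denervated soleus, 1609 in plantaris and 2030 in normal soleus, a fold of -0.53 ± 0.20 for denervation.

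Cnn1, the smooth muscle calponin that restrains actomyosin cycling, was the faintest probe of the set and the least certain. It read 15.5 in denervated soleus, 24.5 in plantaris and 35.8 in normal soleus. Of its 2 spots per array 0 were well above background in denervated soleus, 1 in plantaris and 2 in normal soleus. Its signal was 2.32-fold lower in denervated soleus, a log2 fold of -1.21 ± 0.46 that counts here as a bound. The denervated signal was not well above background, so the size of that fold is uncertain. It was -0.56 with normexp background and -0.97 on the authors' deposited scale.

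The receptors went opposite ways. Notch3, the mural Notch receptor, read 99.7 in denervated soleus, 395 in plantaris and 191 in normal soleus. Its repeat spots were tight, with 96.9 and 103 on the denervated array against 184 and 199 on the normal soleus array. Its fold of -0.94 ± 0.22 is the lowest among markers measured on both arrays, with 14.5% of all genes lower. Pdgfrb, the receptor that recruits pericytes and is also carried by fibroblasts, read 883 in denervated soleus, 478 in plantaris and 600 in normal soleus. It stood at 0.56 ± 0.20 for denervation, and 79.2% of all genes had a lower fold.

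Rgs5, a regulator of G protein signalling that is abundant in pericytes, read 1226 in denervated soleus, 1593 in plantaris and 1708 in normal soleus. Its fold of -0.48 ± 0.20 was the smallest of the 7 negative ones. Cspg4, the proteoglycan NG2 of pericyte surfaces, rests on 10 spots per array. They ranged from 1475 to 1679 in denervated soleus, from 1507 to 1716 in plantaris and from 2296 to 2583 in normal soleus. The first 2 arrays overlapped and both lay below normal soleus, with folds of -0.65 ± 0.20 for denervation and -0.60 ± 0.20 for plantaris. Mcam, the adhesion molecule CD146 shared by mural and endothelial cells, was highest in denervated soleus at 1567, with 1116 in plantaris and 1007 in normal soleus. Its fold of 0.64 ± 0.20 was the highest of the set for denervation.

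**Figure D2:**
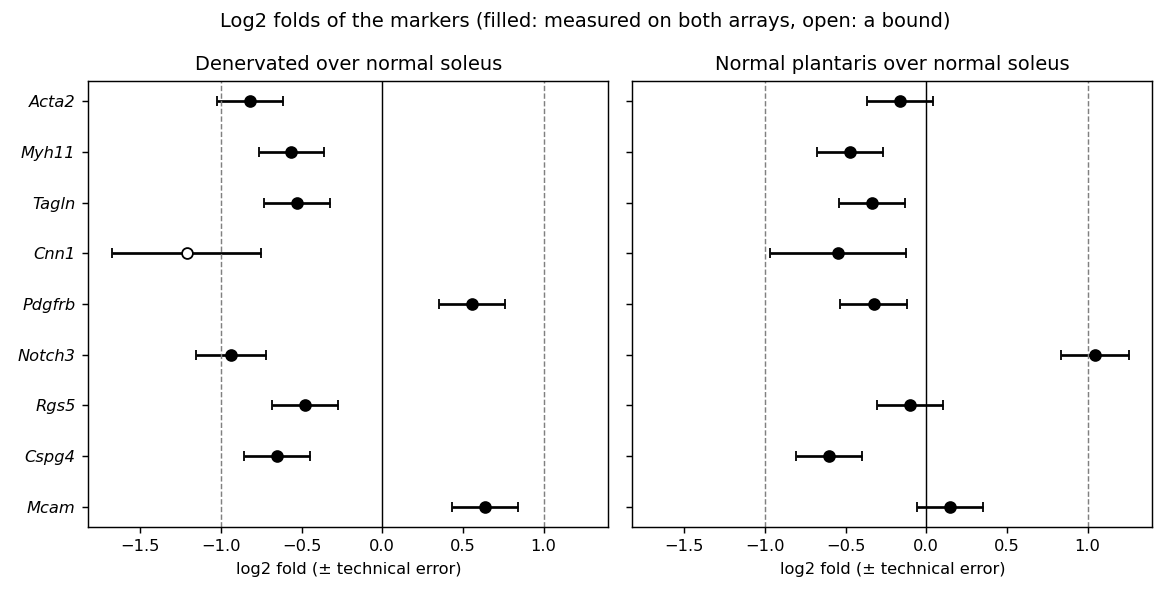
Log2 fold of each marker, denervated over normal soleus (left) and plantaris over normal soleus (right). Bars are the technical error from the scanner software, dashed lines mark 2-fold, and the open point for Cnn1 (-1.21) is a bound. On the left 7 markers lie below 0 and 2 above, and on the right Notch3 alone lies past 2-fold (1.05).

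Between the normal muscles the differences were smaller. Of the 9 markers 7 were lower in plantaris than in normal soleus and 2 higher, where 47.5% of all genes lay below 0. The median log2 fold of the markers was -0.33 (-0.15 with normexp background), against 0.02 over 11015 genes. For 5 the lower value exceeded its technical error, namely Cspg4 (-0.60), Cnn1 (-0.55 ± 0.42, or 0.09 with normexp background), Myh11 (-0.48), Tagln (-0.34 ± 0.20) and Pdgfrb (-0.33 ± 0.21). Of all genes 27.7% were lower beyond their error and 58.5% beyond it either way. Acta2 (-0.16 ± 0.20), Rgs5 (-0.10 ± 0.20) and Mcam (0.15 ± 0.20) lay within it.

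Notch3 was the exception. It was 2.07-fold higher in plantaris, with spots of 394 and 395 there against 184 and 199 in normal soleus. Its fold of 1.05 ± 0.21 is above that of 94.7% of all genes. It was the 1 marker past 2-fold, where 11.8% of all genes were (5.71% higher, 6.11% lower), and it stood just under that mark at 0.84 with normexp background and at 0.94 on the authors' deposited scale. The genes closest to Notch3 over the 2 folds, among 9855 genes well above background on all 3 arrays, were Gpr182, Tigar and Ptp4a3, at distances of 0.02, 0.06 and 0.06 log2 units. Such likeness rests on 3 arrays, and 14 genes lay within 0.2 units.

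Ordered by level, Acta2, Myh11, Tagln, Cnn1, Rgs5 and Cspg4 all ran from normal soleus over plantaris to denervated soleus, but neighbours were not always apart. Acta2 and Rgs5 did not differ beyond technical error between normal soleus and plantaris. Tagln, Cspg4 and the brighter Myh11 probe did not between plantaris and denervated soleus. The order of Cnn1 is uncertain, with 0 of 2 spots well above background in denervated soleus and 1 of 2 in plantaris. With normexp background its plantaris value lay above normal soleus (0.09). Notch3 ran from plantaris over normal to denervated soleus and Pdgfrb from denervated over normal soleus to plantaris, each step beyond the error, while for Mcam plantaris and normal soleus were not apart. Repeat spots are a laxer measure than that error. For all 10 probes they did not overlap between the arrays in either comparison, but the same held for 81.3% of all probes with repeat spots for denervation and for 73.2% between the muscles.

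The other genes of the smooth muscle programme gave a mixed picture after denervation. Of 23 further genes listed, 19 were on the array and 17 measured, and 4 were at least 2-fold lower and none higher (median 0.00, background 13.4% lower). They were Tpm2, a beta-tropomyosin that skeletal fibres also express (-2.46), the coactivator Myocd (-2.21 ± 0.38), the gamma-actin of visceral smooth muscle Actg2 (-1.38, and lower still on a second probe) and the myosin phosphatase subunit Ppp1r12b (-1.31). In plantaris none was 2-fold lower and 1 of 18 was higher (background 6.11% lower and 5.71% higher). That was Lmod1, an actin nucleator of the smooth muscle filament. It was well above background in plantaris only, with a bound of 4.26 ± 0.73 log2 units. Its second probe stood at 2.47, a difference that involves a signal not well above background.

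Actin genes need a caution of their own, since their coding sequences are much alike and probe sequences were not used here. Acta1, the skeletal alpha-actin, stood at -2.44 ± 0.20 for denervation and 0.25 ± 0.20 in plantaris. Actc1, the cardiac actin, stood at -0.14 ± 0.20 and -2.75 ± 0.20 in the same comparisons. The Acta2 values of -0.82 and -0.16 lay between these in each comparison, and what part cross-hybridisation has in them was not tested.

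Of 24 other pericyte genes listed, 19 were on the array and measured. After denervation 1 was 2-fold higher and 1 lower (median -0.13, background 8.73% higher and 13.4% lower). The higher one was the mural transcription factor Tbx18 (1.48 ± 0.27, a single spot per array). The lower one was the endothelin receptor Ednrb (-1.22), whose normal soleus spots stood far apart (SD 1.1 log2 units). Below 2-fold, Cox4i2, a respiratory chain subunit found in pericytes, stood at -0.92, and Vtn, the matrix protein vitronectin, at -0.89. In plantaris 16 of 19 lay below 0 (median -0.18), where 47.5% of all genes lay below 0 and 11.8% were at least 2-fold apart. Ednrb was the 1 past 2-fold (-1.57), followed by Ifitm1 (-0.96), Ebf1 (-0.70 ± 0.37, with a spot SD of 1.28 log2 units in normal soleus) and Cd248 (-0.67).

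In the PDGF, Notch and angiopoietin pathways 26 of 28 genes were on the array. After denervation 4 of 25 measured were at least 2-fold higher and 2 lower (median -0.04, background 8.73% higher and 13.4% lower). The Pdgfrb ligand Pdgfd was higher by 1.93 ± 0.28, whereas Pdgfb, the endothelial ligand, named after its values were seen, stood at 0.12 ± 0.30 on 1 probe and at -1.65, a difference from a signal not well above background, on the other. Dll4, the Notch ligand of arterial endothelium, was at -1.62 ± 0.22 (-1.21 on its second probe). Dll1 stood at a bound of 1.57 ± 0.37, and the transforming growth factor receptor Tgfbr2 was at 1.49. Chosen after their values were seen, the Notch targets Nrarp and Hey1 stood at -1.20 ± 0.21 and -0.72 ± 0.26, next to Notch3 at -0.94. Nrarp rests on a single spot per array, and Hey1 is faint (49.2 in denervated and 81.1 in normal soleus). Of the other listed targets, Hey2 was at -0.38 ± 0.21, Hes1 at -0.18 ± 0.21 and Heyl at 0.26 ± 0.30.

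In plantaris 2 of 24 pathway genes were 2-fold higher, both as bounds on faint probes (Pdgfc 1.57 ± 0.73 and Notch2 1.48 ± 0.66). The endothelial destabilising ligand Angpt2 was the 1 lower (-1.11 ± 0.21). Over all genes 5.71% were higher and 6.11% lower by that much. Dll4 and Hey1, named after their values were seen, stood at 0.48 and 0.59 beside Notch3 at 1.05, and Hes1 and Hey2 at -0.62 and -0.61. The targets Nrarp and Heyl, also named after their values were seen, stood at 0.13 ± 0.20 and -0.05 ± 0.33, within their errors.

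**Figure D3:**
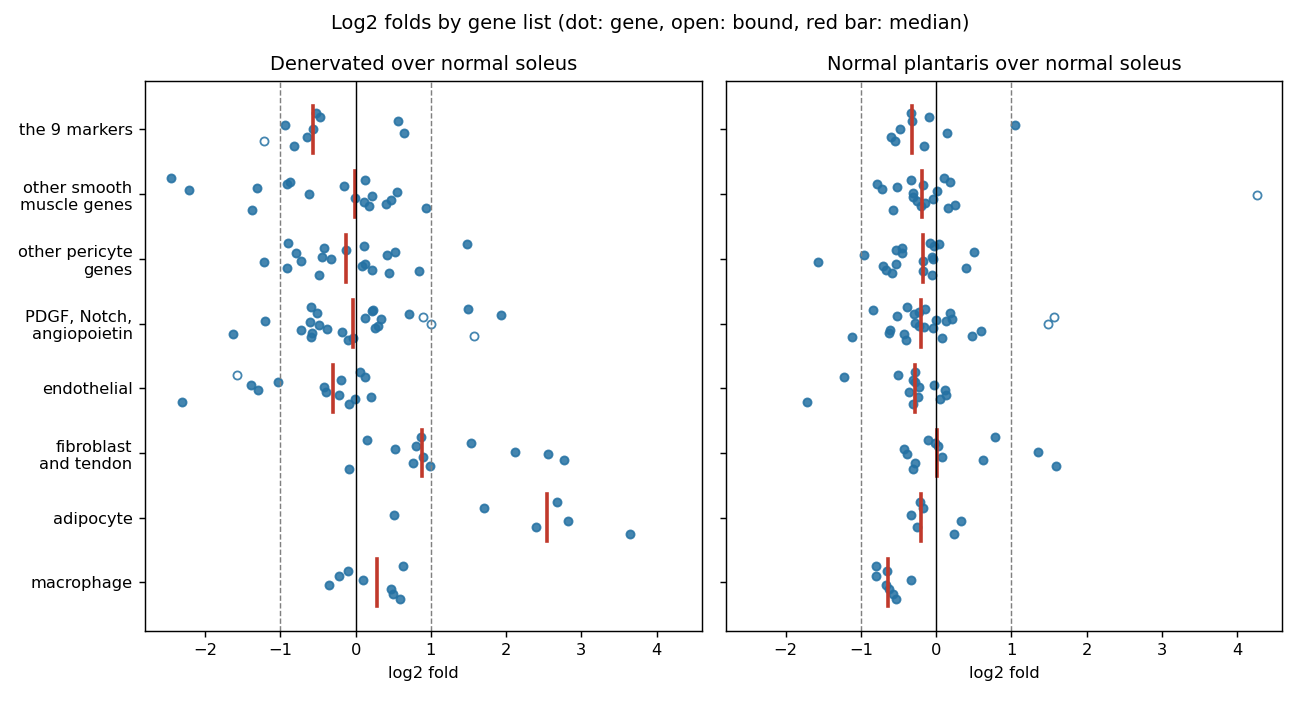
Log2 folds of the markers, related gene lists and markers of other cell types, denervated over normal soleus (left) and plantaris over normal soleus (right). Each dot is a gene, open dots are bounds, red bars are list medians and dashed lines mark 2-fold. On the left the adipocyte and fibroblast medians (2.54 and 0.88) lie to the right of the marker median (-0.56).

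Markers of other cells differed on the same arrays. Over all genes 13.4% were at least 2-fold lower after denervation and 8.73% higher. Endothelial genes, the other cells of the vessel wall, were 2-fold lower in 5 of 14 after denervation and higher in none (median -0.30), led by Cdh5 (-2.30), Sox17 (a bound of -1.58 ± 0.79), Kdr (-1.39) and Flt1 (-1.29). Pecam1 and Cldn5 of the same list, named after their values were seen, stood at -0.20 and -0.01. Fibroblast and tendon genes were 2-fold higher in 4 of 12 and lower in none (median 0.88), namely Comp (2.77), Fbln1 (2.56), Fmod (2.11) and Postn (1.54), all of the matrix. Their summed signal, carried mostly by the bright probes of Fmod, Col1a1, Dcn and Col3a1, was 229637 in denervated and 99881 in normal soleus. Of 6 measured adipocyte genes 5 were 2-fold higher (median 2.54), Adipoq (3.65) and Cidec (2.83) the most. The summed adipocyte signal was 62381 in denervated and 14319 in normal soleus, carried mostly by the bright probe of Cfd (44639 and 8455). The hormone gene Lep, named after its values were seen, was not well above background on any array. What part these cells have in the values of Pdgfrb and Mcam, or of the lower markers, was not tested.

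Schwann cell and nerve genes were 2-fold lower in 4 of 8 and higher in 2 after denervation, against 13.4% and 8.73% of all genes. The myelin gene Mbp was at -2.11 and S100b at 2.21. A fainter second Mbp probe stood at 1.36, a difference that involves a signal not well above background. Of 6 satellite cell and precursor genes 1 was higher (Ncam1, 1.09) and 1 lower (Des, the desmin that fibres and mural cells share, -1.21). None of 8 macrophage genes passed 2-fold (median 0.29). In plantaris 47.5% of all genes lay below 0, 6.11% were at least 2-fold lower and 5.71% higher. The endothelial median was -0.28 there, with 2 of 14 genes 2-fold lower (Cdh5 -1.71, Plvap -1.23). All 8 macrophage genes lay below 0 in plantaris (median -0.64). Of 12 fibroblast and tendon genes 2 were 2-fold higher there, Col1a1 (1.59, and 1.36 on a second probe) and Fmod (1.36). Their median was 0.01, and their summed signal was 189509 in plantaris against 99881 in normal soleus. The adipocyte median was -0.20, with none past 2-fold. Of 6 satellite cell genes 1 was higher in plantaris, the cadherin Cdh15 (3.50 ± 0.21, with 2696 in plantaris against 238 in normal soleus).

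**Figure D4:**
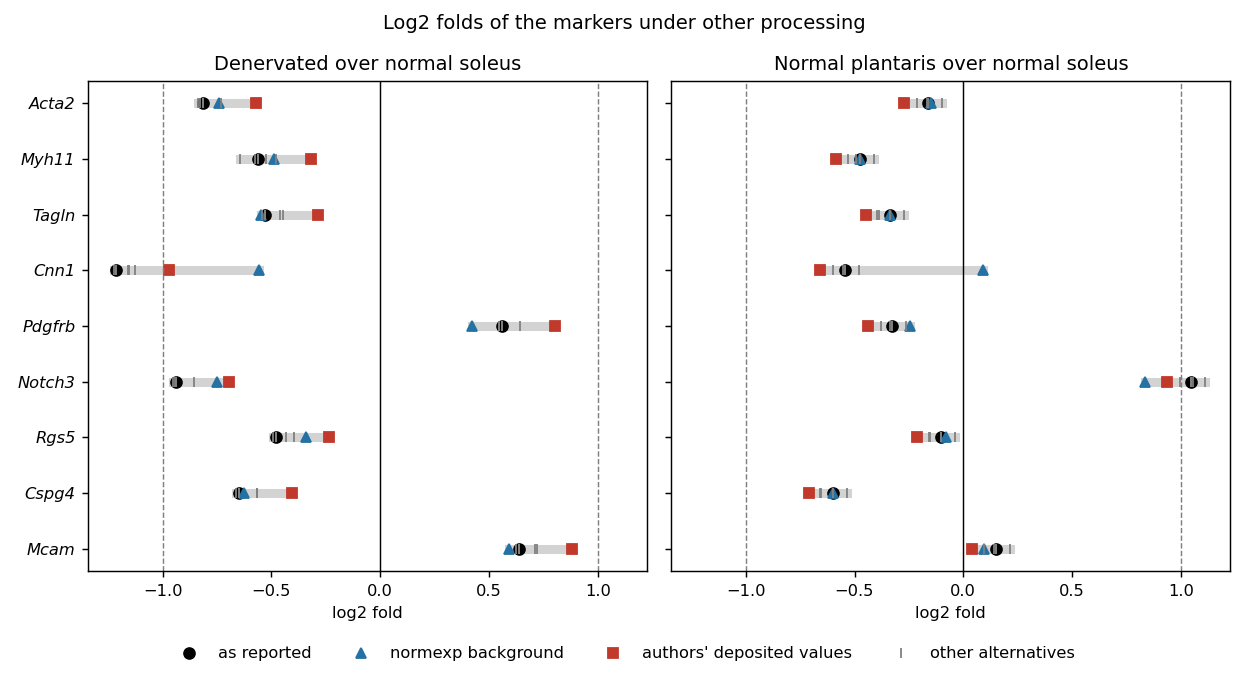
Log2 folds of the markers as reported (black), with normexp background (blue triangles), with the authors' deposited values (red squares) and under the other alternatives (grey ticks), denervated over normal soleus (left) and plantaris over normal soleus (right). No marker crosses 0 on the left, and Cnn1 alone does on the right (-0.55 as reported, 0.09 with normexp background).

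The signs of all 9 markers for denervation held under each alternative that gave them a value, and so did 8 of 9 between the muscles, all but Cnn1. The authors' deposited scale raised the median of all genes for denervation to 0.26 and the marker median with it to -0.32, a difference of -0.58 from all genes on either scale.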

How the data were processed

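Total RNA was labelled with Cy3 and hybridised to single-colour Agilent arrays, 1 per group, per the labels. Per the file headers, the processed signal is an intensity made with Agilent Feature Extraction 10.10.1.1, with no scaling between arrays, and the other columns used are flags of 0 or 1 for each spot. The deposited value table of the authors holds intensity that equalled the processed signal times 1.41 (denervated soleus), 1.80 (plantaris) or 1.60 (normal soleus). No source used here says what set these factors, so the scale of that table is unknown.

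Here the log2 signal of the 58717 non-control spots was centred on each array's 75th percentile. Between 467 and 569 outlier-flagged spots per array were left out, 0 spots were saturated, and repeat spots were averaged. RefSeq accessions joined 18005 of 30367 probes to 15168 gene symbols of GRCr8, and the brightest probe stood for a gene. Probes with at least 50% of spots well above background were taken as measured. Genes measured on 1 or both arrays of a comparison were kept. If measured on 1 only, the fold is a bound, set against its signal on the other array or, where higher, against the faintest measured probe there. Such a bound depends on the processing and is not a strict lower limit. Counts take genes at least 2-fold (1 log2 unit) apart, which is a rule on size. The number of arrays limits the precision, and no test was run. The code was tested on simulated data.

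The members and gene lists were chosen with earlier results of these data known. All 9 members are named. Of the other lists, the genes with the largest folds are named, up to 4 a list and comparison, plus Acta1, Actc1, Actg2, Myh1, Myh4 and Myh7 whatever their value, and the 3 genes nearest in pattern to Notch3. Any other gene was named after its values were seen. That holds also where the text does not say so beside the gene, as for Hes1, Hey2, Heyl, Dcn and Col3a1. Alternatives were normexp background (limma 3.58.1, offset 50, on the median spot signal, since the files hold no mean), quantile normalization, centring on the median, the deposited values, other filters on dim probes, a mean over probes, and outlier spots kept. Centring on the 75th percentile of detected spots and a bound against the faintest spot were added after seeing the data.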

Additional observations from a re-analysis of the deposited data

How the results depend on the processing

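The count of markers at least 2-fold apart rests on 1 gene in each comparison. For denervation it was 1, and it was 0 with normexp background, with the authors' deposited values and with both arrays required to be well above background, which leaves out Cnn1. For plantaris it was 1, and it was 0 with normexp background, with the deposited values and with the 75th percentile over detected spots. The median log2 fold of the markers for denervation was -0.56, and -0.32 with the deposited values. No median changed sign, and in the other alternatives the medians moved by less than 0.20, the typical technical error of a single marker. That is not an error of the median itself. The plantaris median moved from -0.33 to -0.15 with normexp background. Of the values of single markers under alternatives, 80 moved by less than the marker's own technical error and 9 did not for denervation, and 88 and 2 for plantaris. Many of those values could not move. No marker spot was outlier-flagged, only Myh11 has a second probe, and filters on dim probes could change Cnn1 alone. The 9 were Cnn1 with normexp background and every other marker with the deposited values. The 2 were Cnn1 and Notch3 with normexp background. Over all genes, 988 were higher and 1518 lower for denervation, against 367 and 1001 with normexp background and 1568 and 1107 with the deposited values. For plantaris 629 were higher and 673 lower, against 309 and 282 with normexp background 439 and 433 among genes well above background on both arrays, 515 and 790 with the deposited values, and 702 and 619 with centring on the median. Among the markers, Cnn1 alone was not well above background on every array. No paired analysis was possible because each group has 1 array.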
